A study of Mus musculus with 9 samples.

Results

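The transcription factors that steer CD8+ T cells towards the effector state were examined through H3K27ac, a histone acetylation that accompanies active enhancers and promoters. The group comprised 8 genes (Tbx21, Eomes, Id2, Zeb2, Bhlhe40, Hopx, Nfil3 and Zfp683) out of 22238 genes annotated as protein coding, and they were picked by name for their known roles. For each gene, all H3K27ac islands that touched the gene body or the 50 kb upstream of its transcription start site (TSS) were collected, and all 8 genes had islands in both genotypes. The marked cells were naive CD8+ T cells sorted as GFP+, TCRbeta+, CD62Lhi and CD44lo-med from young adult C57BL/6 mice of both sexes. WT mice were hCD2-Cre+ Rosa26GFP with Tcf7+/+ and Lef1+/+ alleles, and gave 4 H3K27ac samples. Mice called dKO were hCD2-Cre+ Rosa26GFP with Tcf7fl/fl and Lef1fl/fl alleles, so that their GFP+ cells lacked Tcf1 and Lef1, and gave 3 H3K27ac samples. The hCD2-Cre transgene and the GFP reporter were therefore shared by both groups, and this Cre driver works mainly after T cells have left the thymus. Each genotype also had 1 input sample, which was not analysed here.

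An island is a stretch of the genome in which the reads of a genotype exceeded the background, and its value is the number of reads within it. The authors pooled the replicates of a genotype before they called islands. Each gene thus had 1 value per genotype in the lists analysed here. Values of single samples were not analysed, so the spread between mice is not given and no difference below has a replicate check. The WT list held 65563 islands with 82668007 counts over 392.7 Mb, and the dKO list held 82213 islands with 57665047 counts over 429.3 Mb. Counts were scaled to a total of 1000000 per list (CPM), and compared as the log2 ratio of dKO to WT. The density of an island, its counts per kb, was compared in the same way, and over all islands the scaled density was 0.13 lower in dKO on the log2 scale (a log2 ratio of -0.13). Intervals are 95% Wilson intervals and cover counting error only, as does every other interval below. A ratio of at least 1.5 in either direction was called changed. In these sorted populations, a lower mark in every cell and a mark in fewer cells cannot be told apart.

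Naive CD8+ T cells become short-lived effector cells or long-lived memory cells after they meet antigen, and this choice depends on the relative amounts of a small set of transcription factors. T-bet, the product of Tbx21, and Eomes are related T-box factors that switch on cytotoxic genes. Id2 has no DNA-binding domain of its own and blocks E proteins, while Zeb2 is a zinc finger repressor that acts with T-bet in terminal effector cells. Bhlhe40 and Nfil3 are a basic helix-loop-helix and a basic leucine zipper factor. Hopx is a small homeodomain protein without DNA contact, and Zfp683 encodes Hobit, a relative of Blimp1 found in tissue-resident T cells. Tcf1 and Lef1, which are high in naive cells, recognise the DNA word CTTTGA or CTTTGT.

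Shown first are 5 of the 8 promoters, picked after islands of both lists were joined, as described below. Their promoter regions, summed over all annotated TSS of the gene, kept a ratio of at least 1.5. At Zeb2 only this sum passed, and the region over the printed TSS alone had a log2 ratio of -0.43 and did not pass. By separate island counts, the promoters of Tbx21 and Zfp683 passed as well. Each sequence holds the 300 bases upstream of the TSS, 5′ to 3′ on the strand of the gene, in the NCBIM37 (mm9) assembly. They lie at chr9:118387030-118387329 for Eomes (plus strand), chr12:25780958-25781257 for Id2 (minus strand), chr6:108610323-108610622 for Bhlhe40 (plus strand), chr5:77544187-77544486 for Hopx (minus strand) and chr2:44972916-44973215 for Zeb2 (minus strand). Capitals mark a Tcf/Lef core word on either strand.
Eomes promoter: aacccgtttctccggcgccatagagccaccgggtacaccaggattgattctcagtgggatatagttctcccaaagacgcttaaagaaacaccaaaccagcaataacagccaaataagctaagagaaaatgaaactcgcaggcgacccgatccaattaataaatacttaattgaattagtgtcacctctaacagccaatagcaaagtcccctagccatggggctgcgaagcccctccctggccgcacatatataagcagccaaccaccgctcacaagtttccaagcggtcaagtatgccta
Id2 promoter: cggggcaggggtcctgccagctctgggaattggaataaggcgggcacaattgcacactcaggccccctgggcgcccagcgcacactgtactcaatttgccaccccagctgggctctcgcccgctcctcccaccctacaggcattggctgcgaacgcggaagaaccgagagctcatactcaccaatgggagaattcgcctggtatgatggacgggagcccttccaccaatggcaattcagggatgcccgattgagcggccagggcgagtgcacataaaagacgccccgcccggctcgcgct
Bhlhe40 promoter: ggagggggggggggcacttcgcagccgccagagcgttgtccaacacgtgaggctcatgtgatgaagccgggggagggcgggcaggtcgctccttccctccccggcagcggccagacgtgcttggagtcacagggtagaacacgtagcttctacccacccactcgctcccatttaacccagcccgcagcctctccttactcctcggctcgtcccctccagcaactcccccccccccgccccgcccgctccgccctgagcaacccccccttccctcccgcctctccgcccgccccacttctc
Hopx promoter: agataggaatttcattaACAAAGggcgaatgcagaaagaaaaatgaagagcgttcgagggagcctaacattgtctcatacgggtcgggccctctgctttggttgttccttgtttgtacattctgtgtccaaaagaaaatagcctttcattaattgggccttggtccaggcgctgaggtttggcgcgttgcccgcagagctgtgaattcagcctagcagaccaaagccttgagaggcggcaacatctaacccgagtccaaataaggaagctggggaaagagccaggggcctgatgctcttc
Zeb2 promoter: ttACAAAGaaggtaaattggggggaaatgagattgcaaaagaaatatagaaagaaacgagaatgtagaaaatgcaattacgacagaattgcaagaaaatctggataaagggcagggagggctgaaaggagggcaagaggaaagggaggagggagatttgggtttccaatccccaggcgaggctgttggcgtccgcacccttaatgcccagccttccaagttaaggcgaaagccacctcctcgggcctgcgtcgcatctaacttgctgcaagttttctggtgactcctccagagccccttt
The word CTTTGA or CTTTGT, or its reverse complement TCAAAG or ACAAAG, was found in 2 of the 8 promoters of the group, those of Hopx and Zeb2. Among 22232 protein-coding promoters of the same length, 31.6% held it. In both it read ACAAAG on the strand of the gene, and its first base lay at position -283 from the Hopx TSS and at -298 from the Zeb2 TSS. The median GC content was 55.8% over the 8 promoters and 53.3% over all promoters. A match describes the letters in this window and was not tested as a binding site.

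The level of H3K27ac over the 8 loci ranged from 65.3 CPM at Zeb2 to 233 CPM at Id2 in WT, and from 25.7 CPM at Zeb2 to 228 CPM at Tbx21 in dKO. Ordered by density in WT, Tbx21 stood highest with 245 counts per kb. It was followed by Zfp683 with 234, Hopx with 225, Id2 with 207, Nfil3 with 204, Eomes with 197, Bhlhe40 with 148 and Zeb2 with 137 counts per kb. The counting intervals of Id2 and Nfil3 overlapped, as did those of Nfil3 and Eomes, and no other neighbours in this order overlapped. The spread between mice is not given, so the order describes these 2 pools. In dKO, Tbx21 with 211 and Zfp683 with 178 counts per kb again led, and Zeb2 with 103 counts per kb was again lowest. The 5 genes between them lay from 117 to 132 counts per kb, and within this range each counting interval overlapped that of its neighbours in the order. Hopx and Eomes stood lower in the dKO order than in the WT order, and Nfil3 and Bhlhe40 stood higher, but these places rest on overlapping intervals in dKO.

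Summed over the whole locus, 1 of the 8 genes was called higher in dKO (Zfp683) and 1 was called lower (Zeb2). By the same rule, 11.5% of the 16385 coding genes that had islands in each list were called higher and 11.5% were called lower, so the share among the 8 genes was close to that background. By density, none of the 8 genes was called in either direction, against 0.421% of all genes called higher and 9.26% called lower. The median log2 ratio over the 8 genes was -0.03 by counts and 0.00 by density, against -0.03 and -0.16 over all genes. Hence the loci of this group did not move together. By counts, Tbx21, Bhlhe40, Nfil3 and Zfp683 had ratios above 0, and Eomes, Id2, Zeb2 and Hopx had ratios below 0. With a median of -0.03 over all genes, ratios on both sides of 0 are common, so this is no trait of the group.

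**Figure D1:**
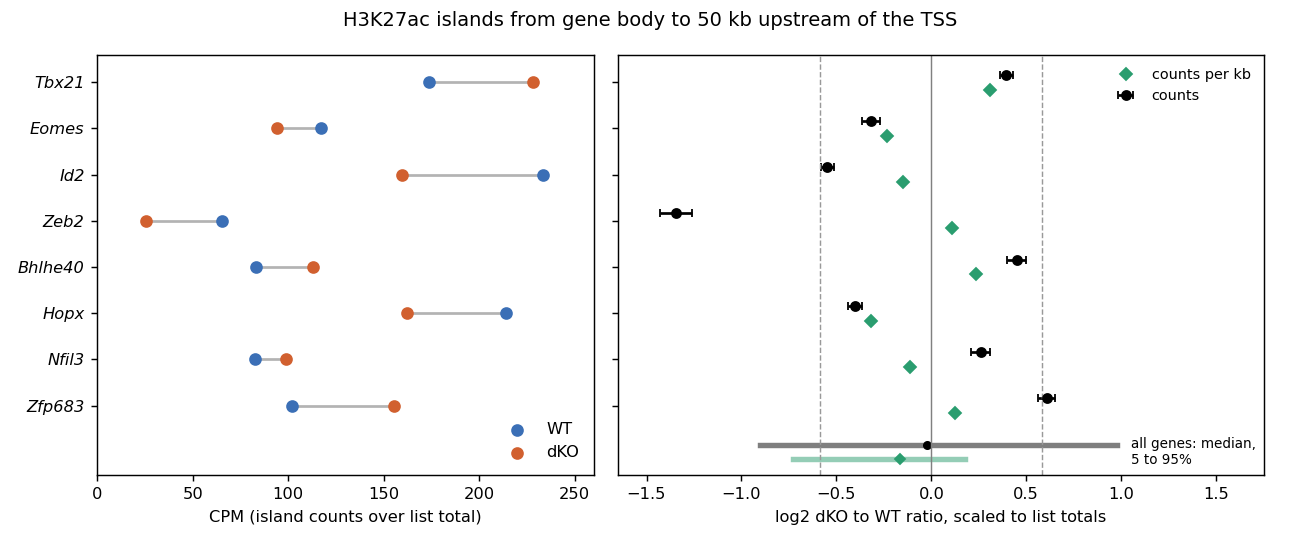
H3K27ac at the 8 loci, from the gene body to 50 kb upstream of the TSS. Left, island counts scaled to the list total (CPM, 1 pooled list per genotype). Right, log2 dKO to WT ratio of counts (circles, with 95% Wilson intervals of counting error) and of counts per kb (diamonds, no interval). Dashed lines mark a ratio of 1.5, and the bars at the bottom show the median and the 5 to 95% range of 16385 genes. Zeb2 stands apart by counts at -1.34, whereas its density ratio is 0.11.

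Promoters, here islands within 1 kb of an annotated TSS of the gene, were read by the same rule. By island counts, 3 of the 8 promoters were called higher in dKO (Tbx21, Bhlhe40 and Zfp683), against 13.1% of 13481 promoters with islands in both lists. Another 4 were called lower (Eomes, Id2, Zeb2 and Hopx), against 19.9% of all promoters. Nfil3, at 0.57, lay just under the ratio of 1.5. An island may break in 1 list and run on in the other, which moves its count. Islands of both lists that shared at least 1 bp were therefore also joined into regions, and the values of both lists were summed over each region. This choice was made after the island values were seen. On joined regions, only the Bhlhe40 promoter remained higher by a ratio of 1.5, and those of Eomes, Id2, Zeb2 and Hopx remained lower. That of Zeb2 did not pass when a region with an island in WT alone was left out. The share of all promoters called on joined regions was not computed, so these calls have no background of their own. Around the 8 genes, 49 joined regions were found, of which 30 held islands of both lists. By counts, 3 of these 30 were called higher, against 11.1% of 45322 regions in the genome, and 6 were called lower, against 14.6%. By density, none was called higher, against 1.17%, and 2 were called lower, against 4.51%. These 2 were the promoter regions of Eomes and Id2.

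**Figure D2:**
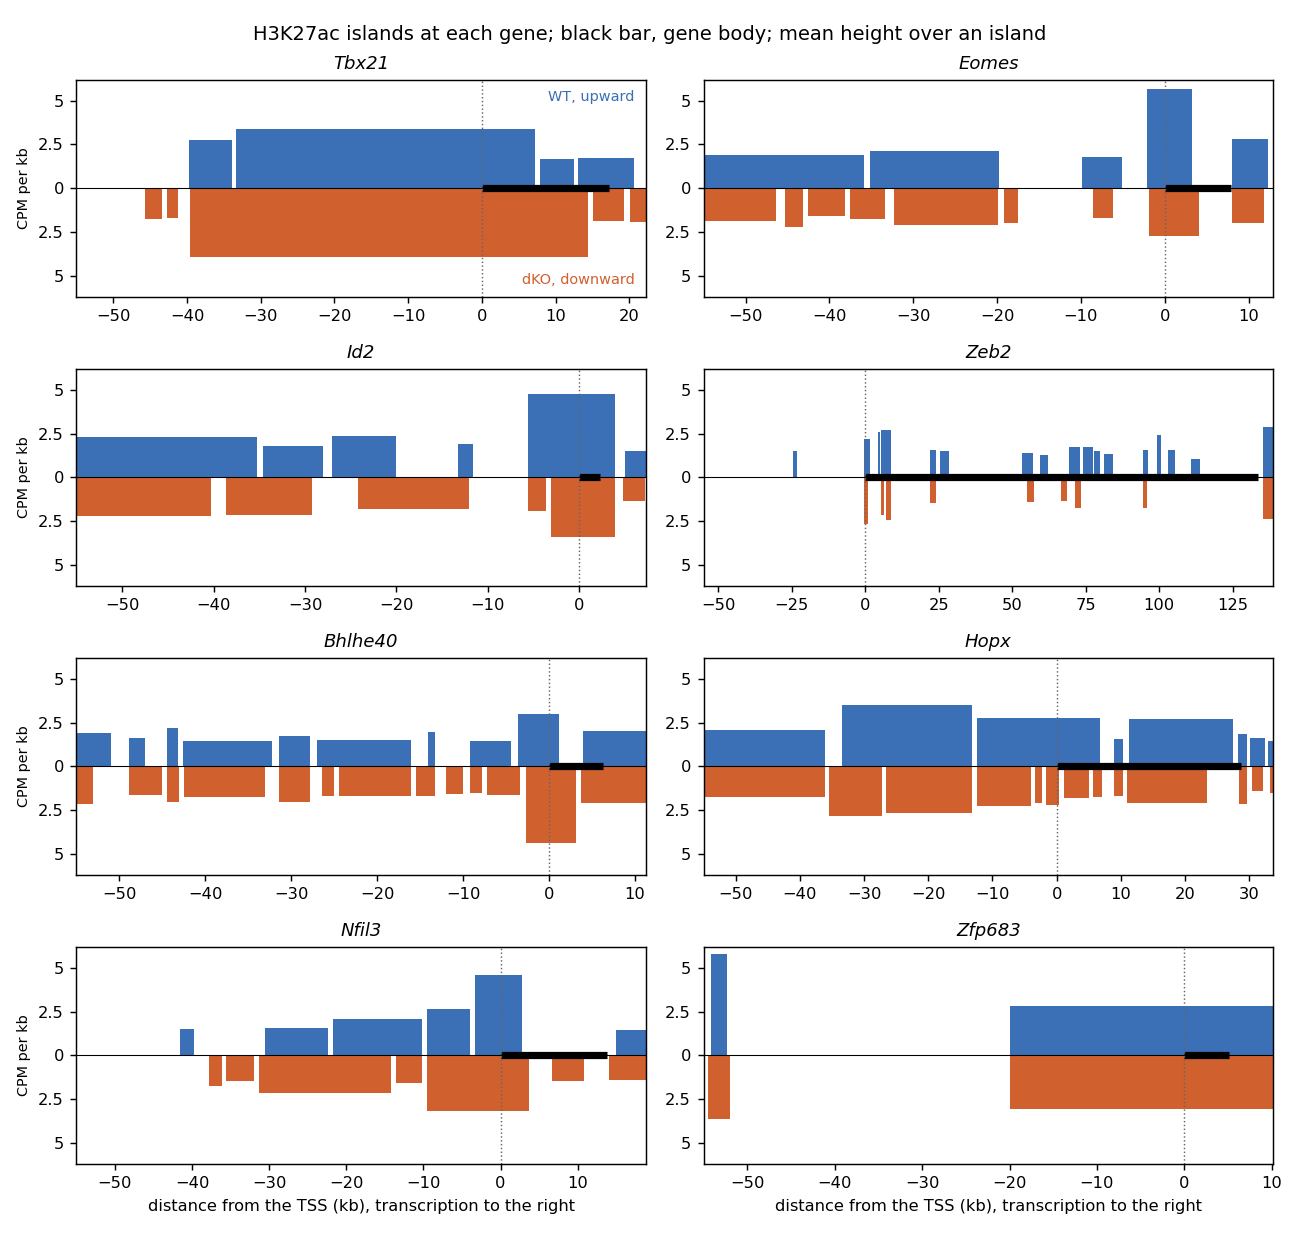
H3K27ac islands at each of the 8 genes, by distance from the TSS in kb. The height of an island is its CPM per kb, WT drawn upward and dKO downward, and black bars mark gene bodies. The promoter island of Eomes and that of Id2 are lower in dKO than in WT, the promoter island of Bhlhe40 is higher, and at Zeb2 most WT islands have no dKO counterpart. Zeb2 is drawn on a longer axis.

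Tbx21 (chr11:96959385-96976645, minus strand), the gene for T-bet, carried more of the mark in dKO. Its islands summed to 14342 counts in WT and 13144 in dKO, which is 173 and 228 CPM. The log2 ratio was 0.39 (0.36 to 0.43) and that of density was 0.31. This density ratio exceeded that of 97.9% of genes, and the ratio by counts exceeded that of 82.3%. The islands that touched the Tbx21 locus were 58.6 kb long in WT and 62.2 kb in dKO, including parts beyond its 3′ end. The separate island values ran apart: the promoter island had a log2 ratio of 0.64 and the distal islands had one of -1.30. The borders differed, as the promoter island was 40.6 kb long in WT and 54.0 kb in dKO, where it took in ground held by other islands in WT. Joined into 1 region (chr11:96953001-97016400), the locus had 14342 counts in WT and 13138 in dKO. Its log2 ratio was 0.39 by counts and 0.32 by density. This region also covers the promoter of the neighbouring gene Tbkbp1, and the parts of both genes in it cannot be told apart. Farther upstream, 2 small regions had an island in dKO alone, with 157 counts at -42.0 kb and 246 counts at -44.6 kb from the TSS.

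Eomes (chr9:118387330-118395250, plus strand), which encodes the other T-box factor, was reduced at its promoter. The promoter region (chr9:118385201-118391400) held 2537 counts in WT and 947 in dKO, over 5.4 and 6.0 kb. Its density was 470 counts per kb in WT and 158 in dKO. By counts the log2 ratio was -0.90 (-1.01 to -0.79), and by density it was -1.05. Among all promoters, 8.35% had a lower ratio by counts and 3.42% a lower one by density. WT density at this promoter was the highest of any promoter in the group, whereas in dKO it lay below those of Id2, Bhlhe40, Tbx21, Nfil3 and Zfp683. The distal mark at Eomes was less affected. The largest region, with its centre at -39.6 kb from the TSS, held 6439 counts in WT and 4056 in dKO, with log2 ratios of -0.15 by counts and -0.05 by density. A smaller region centred at -7.53 kb held 701 and 235 counts. Its log2 ratio was -1.06 (-1.27 to -0.84) by counts but -0.06 by density, the dKO island being 2.4 kb long and the WT island 4.8 kb. One region at -18.3 kb had an island in dKO alone, with 184 counts. Over the whole locus, Eomes had 117 CPM in WT and 94.0 CPM in dKO, a log2 ratio of -0.32. By whole-locus counts, the T-box genes thus lay on opposite sides of 0, with Tbx21 above and Eomes below. Neither locus was called changed. With a window to 100 kb upstream, the log2 ratios were 0.36 for Tbx21 and -0.06 for Eomes. The intervals cover counting error only, so they cannot show whether these genes differ beyond the spread between mice.

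Id2 (chr12:25778666-25780957, minus strand), the inhibitor of E proteins, also had less of the mark at its promoter. The joined promoter region (chr12:25777001-25786600) held 3755 counts in WT and 1604 in dKO. By counts the log2 ratio was -0.71 (-0.79 to -0.62), and by density it was -0.61. Next to it upstream, the region centred at -19.3 kb held 1603 and 1268 counts, with log2 ratios of 0.18 by counts and -0.32 by density. The largest region (chr12:25809001-25884600) held 13914 counts in WT and 9948 in dKO, and its log2 ratios of 0.04 and 0.09 were close to 0. The locus sum of Id2 was 233 CPM in WT and 159 CPM in dKO, a log2 ratio of -0.55. This sum depended on the borders of islands that cross the 50 kb limit: it was -0.07 on joined regions and -0.25 when counts were shared out by the part within the limit. The promoter value did not rest on that limit.

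Zeb2 (chr2:44839154-44972915, minus strand, 10 annotated TSS), a zinc finger repressor of E-box genes, had fewer islands across its gene body in dKO. It had 16 islands in WT and 8 in dKO, with 5402 and 1484 counts. This is 65.3 CPM in WT and 25.7 CPM in dKO. The log2 ratio of -1.34 (-1.43 to -1.26) was among the lowest of all genes, with 1.96% of genes below it. The covered width was lower with the counts, 39.4 kb in WT against 14.4 kb in dKO, and the density ratio was 0.11. Density exists only inside called islands and has a floor. The lowest density of any island was 82.3 counts per kb in WT and 54.6 in dKO, and the medians were 142 and 98.3. The Zeb2 densities of 137 and 103 were near those medians, so this ratio cannot show how far the mark fell where no island was called. Of 17 joined regions, 6 had islands in both lists, 10 had islands in WT alone and 1 had an island in dKO alone. In the whole genome, 12.8% of 76633 regions had islands in WT alone and 28.1% in dKO alone, so the balance at Zeb2 was the reverse of that of the genome. The 10 regions found in WT alone held 2852 counts, and the largest, in an intron 75.6 kb downstream of the TSS, held 489. Over the 6 regions found in each list, the log2 ratio was -0.44 by counts. The 2 promoter regions among them had 758 and 355 counts at 7.21 kb downstream of the TSS, and 357 and 185 counts at the TSS itself, in WT and dKO respectively. The log2 ratios were -0.57 (-0.76 to -0.39) and -0.43 (-0.68 to -0.17). Where a list has no island, its reads there were not counted, so that no ratio can be given for those regions.

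Bhlhe40 (chr6:108610623-108616919, plus strand), a repressor that supports cytokine production in T cells, was marked more strongly at its promoter in dKO. The promoter island held 1189 counts in WT and 1476 in dKO, or 14.4 and 25.6 CPM. Its log2 ratio was 0.83 by counts and 0.56 by density, and 97.6% of promoters had a lower density ratio. On the joined promoter region (chr6:108601401-108613800), the counts were 1772 and 1961, with log2 ratios of 0.67 (0.57 to 0.76) and 0.47. Of the 8 joined regions of Bhlhe40 found in each list, none had a log2 ratio below 0 by counts. The small regions centred at -46.9 kb (243 and 363 counts) and -14.3 kb (129 and 216 counts) had log2 ratios with intervals of 0.86 to 1.33 and 0.95 to 1.58 by counts. Their density ratios were 0.02 and -0.20, so here the dKO islands were wider and not denser. The region centred 9.08 kb downstream of the TSS, which reaches beyond the 3′ end of the gene, held 1352 and 1291 counts with a log2 ratio of 0.45. One further region, at -11.0 kb, had an island in dKO alone with 186 counts. Over the whole locus, Bhlhe40 had 82.9 CPM in WT and 113 CPM in dKO, and its log2 ratio was 0.45 for counts and 0.24 for density.

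Nfil3 (chr13:53062578-53076442, minus strand), a factor required for NK cell development and induced by cytokines in T cells, had a ratio near 0 at its promoter. The promoter island alone gave log2 ratios of 0.57 by counts and -0.52 by density, and was 13.2 kb long in dKO but 6.2 kb in WT. The joined region (chr13:53072801-53086000) held 3559 counts in WT and 2420 in dKO. Its log2 ratios were -0.04 (-0.11 to 0.04) and -0.20. The interval by counts included 0. Upstream, the region centred at -20.8 kb held 3041 and 2464 counts, with log2 ratios of 0.22 and 0.16. Nfil3 also had 3 regions with an island in dKO alone, of 352, 300 and 162 counts, and 1 with an island in WT alone, of 223 counts. The largest of them lay in an intron, 8.74 kb downstream of the TSS.

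Hopx (chr5:77515468-77544186, minus strand, 3 annotated TSS), whose product is kept on in effector and memory T cells, was lower in dKO over most of its length. The locus summed to 17698 counts in WT and 9354 in dKO, or 214 and 162 CPM. The log2 ratios were -0.40 by counts and -0.32 by density, and neither passed the ratio of 1.5. Of all genes, 19.6% had a lower ratio by counts and 27.9% a lower one by density. By density the promoter islands had a log2 ratio of -0.37, and 33.2% of promoters had a lower one. By counts they gave a log2 ratio of -1.67, with 2.38% of promoters lower. In this case, however, 1 WT island stood against 5 dKO islands over the same stretch. On joined regions, that stretch (chr5:77537201-77556600) held 4384 and 2020 counts with a log2 ratio of -0.60 (-0.67 to -0.52) and a density ratio of -0.41. The other promoter region, over the downstream start sites (chr5:77516801-77533200), held 3618 and 1508 counts with a log2 ratio of -0.74 (-0.83 to -0.66) and a density ratio of -0.36. Both promoter regions of Hopx were thus lower by a ratio of at least 1.5. The upstream regions were less reduced, with log2 ratios of -0.26 at -24.3 kb (5856 and 3408 counts) and -0.17 at -46.4 kb (3442 and 2134 counts). The promoter of the predicted gene Gm15831 lies in the first of the promoter regions named here.

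Zfp683 (chr4:133609753-133614911, plus strand), which the annotation names Gm13060, had a single long island in each list. The WT island held 8425 counts in 36.0 kb and the dKO island held 8951 counts in 50.2 kb, and both covered the promoter and the whole gene. The log2 ratio of 0.61 (0.56 to 0.65) passed the ratio of 1.5 by the island counts. The value changed once the stretch was treated alike in both lists. The joined region (chr4:133589801-133640000), which also covers the promoter of Aim1l, held 11211 and 8951 counts with log2 ratios of 0.19 by counts and 0.18 by density. With counts shared out by the part of each island within the locus, the log2 ratio was 0.13. This equals the density ratio of the 2 islands and is not a separate count of reads. No island apart from the promoter island was found at Zfp683 in either list.

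**Figure D3:**
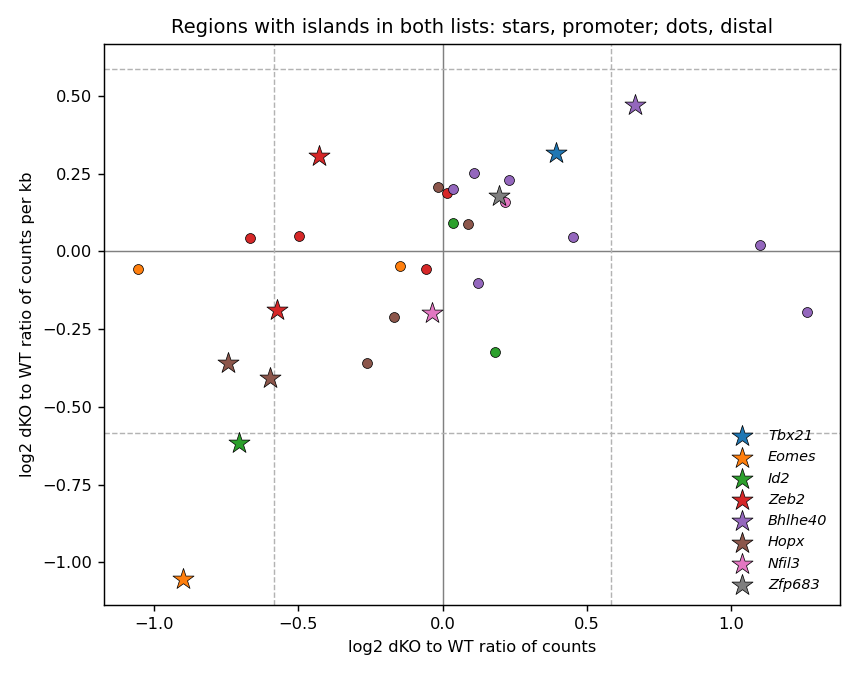
Joined regions of the 8 loci with islands in both lists, 1 symbol per region, with the log2 dKO to WT ratio of counts on the horizontal axis and of counts per kb on the vertical axis. Stars mark regions over a promoter, dots mark distal regions, colours mark genes, and dashed lines mark a ratio of 1.5. The promoter of Eomes (-0.90, -1.05) and that of Id2 (-0.71, -0.61) lie lowest on the vertical axis, and that of Bhlhe40 (0.67, 0.47) lies highest.

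Distal islands were compared apart from promoters. By island counts, none of the 8 genes was called higher in dKO, against 19.8% of 15286 genes, and 2 were called lower (Tbx21 and Zeb2), against 14.0%. The value of Tbx21 came from moved borders, as described above, and had no counterpart on joined regions. Where a distal region had islands of each genotype, no density ratio passed 1.5 in either direction. Of 50 WT islands at the 8 loci, 39 overlapped a dKO island, or 78.0% (64.8 to 87.2%), against 85.1% of all WT islands. Of 55 dKO islands, 47 overlapped a WT island, or 85.5% (73.8 to 92.4%), against 73.8% of all dKO islands. The islands of the WT list without a dKO counterpart lay at Zeb2 and Nfil3.

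The study paired 4 of its accessible chromatin sites with genes of this group, 2 with Bhlhe40 and 2 with Id2. Only the positions of these sites were used here. The Bhlhe40 sites, both in its cluster C1, lie in the promoter region (chr6:108610362-108610511, positions -261 to -112 from the TSS) and at chr6:108580797-108581009, centred at -29.7 kb. The first is part of the promoter printed above. The region around the second held 513 counts in WT and 420 in dKO over 3.6 kb in each, a log2 ratio of 0.23 (0.05 to 0.42). The Id2 sites, both in cluster C4, lie far upstream, at chr12:25990810-25991005 (-210 kb) and chr12:26643479-26643910 (-863 kb). The nearer one lay in a region with 5427 and 3422 counts and a log2 ratio of -0.15 (-0.21 to -0.08). The farther one lay in a region (chr12:26634801-26647000) with 4955 WT counts in 12.2 kb and 1070 dKO counts in 6.8 kb. By counts its log2 ratio was -1.69 (-1.79 to -1.60), and by density it was -0.85, the lowest density ratio of the regions at these 4 sites. The central 300 bases of this site (chr12:26643544-26643843, plus strand) are shown with the Tcf/Lef core word in capitals.
Id2 site at -863 kb: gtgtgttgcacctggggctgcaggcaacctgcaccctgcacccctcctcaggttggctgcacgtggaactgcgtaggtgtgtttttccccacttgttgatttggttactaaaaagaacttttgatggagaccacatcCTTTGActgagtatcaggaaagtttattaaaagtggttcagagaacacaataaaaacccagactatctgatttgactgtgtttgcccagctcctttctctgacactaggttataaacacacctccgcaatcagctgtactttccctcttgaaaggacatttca
The word CTTTGA began at base 138 of this stretch. It occurred once, and 39.7% of 76630 joined regions held such a word in their central 300 bases. The other 3 sites held none in their whole length.

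The farther Id2 site led to the long stretch without protein-coding genes upstream of Id2, which was followed in bins of 100 kb up to the next gene, Rnf144a, 1210.7 kb away. The bins were chosen after the values of the site were seen. In the first 400 kb, the mark was close to even, with 56463 counts in WT and 37468 in dKO. The log2 ratio there was -0.07 (-0.09 to -0.05), and the 4 bins ranged from -0.23 to 0.22. From 400 to 1200 kb (chr12:26180958-26980957), the counts were 91161 in WT and 19536 in dKO. The log2 ratio was -1.70 (-1.72 to -1.68), and 8 of 8 bins were lower, from -4.31 to -1.08. The border at 400 kb stands where the bin ratios change. That 8 of 8 bins were lower therefore follows from where it was set and is no test. The last piece before Rnf144a, from 1200 to 1210.7 kb, had a log2 ratio of 0.21. The stretch from 400 to 1200 kb had 97 islands in WT and 57 in dKO, with a width of 532 and 188 kb. By density, the same stretch had a log2 ratio of -0.20, with bins from -0.49 to 0.02. Here too the dKO density, 104 counts per kb, was close to the median dKO island, so a loss of density and a loss of islands cannot be told apart. This stretch, from 400 to 1200 kb, held 1103 CPM in WT, and the much shorter Id2 locus of 52.3 kb held 233 CPM. Its WT density was lower than that of the Id2 locus, with 171 against 207 counts per kb. Across the genome, 15.4% of 11110 tiles of 100 kb with islands in both lists were called lower and 14.1% were called higher. The tiles upstream of Id2 formed an unbroken run of 8 lower neighbours (chr12:26200001-27000000). Among 1191 runs on the autosomes, 1 was longer, with 9 tiles. No gene was assigned to these islands here, and whether they act on Id2 was not tested.

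**Figure D4:**
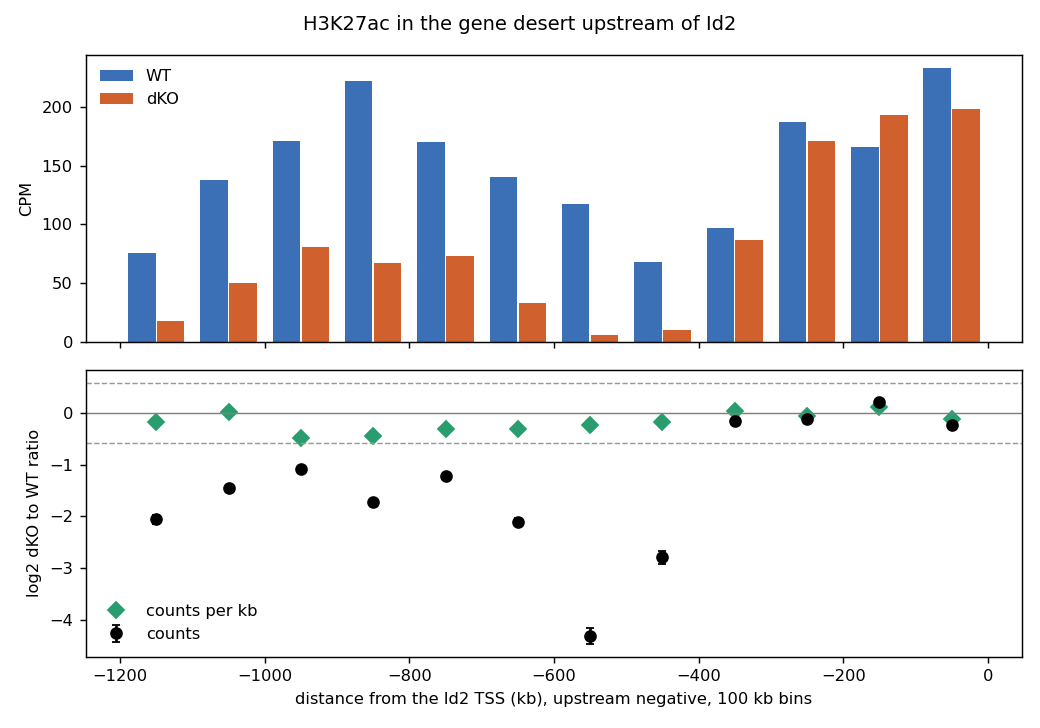
H3K27ac in 100 kb bins over the stretch without protein-coding genes upstream of Id2, by distance from its TSS in kb. Top, CPM in each list. Bottom, log2 dKO to WT ratio of counts (circles, with 95% Wilson intervals) and of counts per kb (diamonds), with dashed lines at a ratio of 1.5. The 4 bins nearest the gene lie between -0.23 and 0.22 by counts, and the 8 bins beyond lie between -4.31 and -1.08.

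Genes that act with or under these factors were read by the same rule for comparison. Of 17 effector and target genes, such as granzymes, chemokines and their receptors, 10 were called higher in dKO by counts and 1 was called lower, with a median log2 ratio of 0.63. Neighbouring genes of this list, such as the chemokine genes, can share islands, so the 17 genes are not all separate loci. Over all genes, 11.5% were called in each direction by counts. By density, 3 of the 17 were called higher (Fasl, Ccl3 and Ccl5), against 0.421% of all genes, with a median of 0.14. Fasl, the death ligand of cytotoxic cells, had 78.2 CPM in WT and 164 CPM in dKO. The chemokine genes Ccl3 and Ccl5 had 77.1 and 108 CPM in WT and 192 and 284 CPM in dKO. Of 10 partner regulators of the effector programme, 2 were called higher by counts and none was called lower, with a median of 0.10. Maf, a bZIP factor of this list, was called in opposite directions by the measures, with 12.5 CPM in WT and 84.6 CPM in dKO but 323 and 128 counts per kb, where 1 WT island stood against 9 dKO islands. Of 10 relatives of the 8 factors, 2 were called higher and 3 lower by counts, with a median of 0.07 and no call by density. The lists overlap: Prdm1 is counted as higher among both the partner regulators and the relatives. Id3 and Zeb1 belong to the relatives and to the next list. Of 14 regulators of the naive and memory state, including Tcf7 and Lef1, none was called by counts or by density, and the median was -0.13. The same background shares hold for these lists, with 9.26% of all genes called lower by density. These counts describe the lists and are no independent evidence of a direction.

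Cell type markers were read as a check of the sorted population. All 6 markers of CD8 T cells had a promoter island in both lists, with 1359 CPM in WT and 1192 CPM in dKO in sum, from 82.2 to 362 CPM per gene in WT and from 135 to 251 CPM in dKO. Of 5 NK cell markers, 4 had a promoter island in both lists, and their sum was 187 CPM in WT and 260 CPM in dKO. Ncr1, a defining NK cell receptor gene, had no island in either list. All 4 B cell markers had a promoter island in both lists, with sums of 288 CPM in WT and 207 CPM in dKO. All 5 myeloid markers had one as well, with sums of 129 and 170 CPM. Over whole loci, which include distal islands, the sums were 1882 and 1848 CPM for CD8 T cell, 537 and 546 CPM for NK cell, 557 and 590 CPM for B cell and 826 and 880 CPM for myeloid markers, in WT and dKO. The B cell sum was thus lower in dKO over promoter islands and higher over whole loci. Over whole loci, Cd8b1 was called lower in dKO (log2 ratio -0.84) and Cd3e higher (0.91), so the near-even CD8 T cell sum holds values in both directions. Of all genes, 11.5% were called in each direction. An island that touches several genes of a list enters the sum for each of them. The part of other cells in the results above was not tested.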

How the data were processed

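H3K27ac ChIP-seq libraries of naive CD8+ T cells were processed by the authors, who aligned reads to mm9 with Bowtie2 2.2.5, kept uniquely mapped reads, and ran SICER 1.1 on the pooled replicates of each genotype. The deposited values are raw read counts per island, scaled for neither depth nor width. A count exists only inside a called island, so moved borders change it, and scaling to the island total also removes differences in enrichment. Whether duplicate reads were removed is not given in the sources used here.

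Starts in the deposited lists were counted from 0 and are given counted from 1. Islands were assigned by any overlap with the gene body or 50 kb upstream, in the GENCODE vM1 annotation of NCBIM37. Depth was 82668007 and 57665047 counts in islands of WT and dKO. Zfp683 was matched through a RefSeq synonym (GRCm38.p6, names only). RefSeq lists this gene as a pseudogene, GENCODE as protein coding. Promoter islands lay within 1 kb of an annotated TSS, and the others were distal. The 95% Wilson interval of the dKO share of both counts was turned into a log2 interval, and exact Poisson intervals were used for densities. No p-value was computed, since each genotype had 1 pooled list. The genes and the lists of other genes were chosen with earlier results of these data known. Named at each gene were the promoter region, the largest region, the regions with the largest increase and decrease among those with at least 200 counts, the largest regions of 1 list alone, and the study's accessible sites (positions only). Alternatives changed the window, the assignment, the promoter width, the filter, the scaling, the ratio called and the overlap. Joined regions and 100 kb bins were added after seeing the data. Motif searches used both strands. Steps were tested on simulated data. Python 3.11.15, pandas 2.3.3, numpy 2.4.6 and scipy 1.17.1 were used.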

Additional observations from a re-analysis of the deposited data

How the results depend on the processing

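The ratios called changed over islands kept their sign under every alternative that gave a value. The distal islands of Tbx21, called lower, gave no value on joined regions, where the distal regions held islands in dKO alone. Of the 46 log2 ratios of whole loci, promoters and distal islands, 13 took both signs across the alternatives, 5 by counts and 8 by density. Those by counts were the distal islands of Eomes (-1.06 to 0.02), Id2 (-0.47 to 0.57), Hopx (-0.22 to 2.89) and Nfil3 (-1.27 to 0.53) and the Nfil3 promoter (-0.04 to 0.64), and some of these were called changed under an alternative. Over the alternatives that change values, 312 of 518 values moved by at most 50% of the width of their counting interval, and 206 moved by more. Density values were judged by the interval of the counts. The main count was 1 gene higher and 1 lower over the whole locus. Shares over all genes were computed for the main setting only, so the counts under the alternatives have no background beside them. With a 10 kb window, 4 were lower by counts and 2 by density, and distal islands gave 1 higher and 4 lower. With a 100 kb window, 0 were higher and 1 was lower among distal islands. Islands assigned to the nearest protein-coding TSS gave 2 lower and 1 lower among distal islands, islands with their midpoint in the window gave 2 lower, and counts shared out by the part in the window gave 0 higher. At the lower of the ratios tried, 3 were higher, 3 lower and 1 higher among distal islands. At a ratio of 2, 0 were higher, and promoters gave 0 higher and 1 lower. Joined regions gave 0 higher, 1 promoter higher and 1 lower among distal islands. Joined regions with islands in both lists gave 0 higher, 0 lower, 1 promoter higher and 0 lower among distal islands. Joined regions that cover no other promoter gave 0 higher, 1 promoter higher and 1 lower among distal islands. With 50% reciprocal overlap, shared islands fell to 54.0% in WT and 49.1% in dKO. Other scalings moved all log2 ratios by 0.07. In each case the cause was not tested, other than the borders, assignments and thresholds that the alternatives themselves change. No paired analysis was possible because the lists used here hold pooled replicates without values per sample. Leaving out a replicate was not run, since values of single samples were not analysed here. Islands in 1 list alone held at most 489 counts at these genes, and the part of depth in them was not tested.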

Other observations

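The stretches without protein-coding genes upstream of the other genes were read in the same bins. Upstream of Eomes, over 328 kb to Cmc1, the log2 ratio of counts was -0.32, and the 3 full bins had ratios of 0.02, -0.48 and -1.89 with distance from the gene. The farthest of them held 5684 counts in WT and 1071 in dKO. The stretch upstream of Bhlhe40 (110 kb) had a log2 ratio of -0.04 and that upstream of Nfil3 (128 kb) had one of 0.24.

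Zeb2 itself lay in another long run of lower tiles, 5 tiles of 100 kb (chr2:44600001-45100000). Its upstream stretch was nearly free of the mark, with 3 WT islands and 1 dKO island in 2000 kb. Runs of 5 or more tiles numbered 9 on the autosomes, and of the 8 genes only Zeb2 lay in one of them. The run upstream of Id2 began beyond the 4 nearest bins, whose ratios were between -0.23 and 0.22. This was noticed after the values were seen and was not tested.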
